A study of Mus musculus with 88 samples.

Results

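Mouse embryonic stem cells lacking Mtf2 were compared with wild-type (WT) cells 5 h after the start of endoderm induction. The comparison held 4 bulk RNA libraries, 2 labelled Mtf2 null and 2 labelled wild type, out of 24 libraries of the endoderm series and 88 samples in all, and they were chosen by genotype, lineage and time in the sample labels. The labels give strain E14 for every library, and the names of these 4 libraries begin with E14 for wild type and MTF2 for Mtf2 null. The methods list E14 as a wild-type line but name another line as the wild type of matched background for Mtf2 null. Cells grown in serum and LIF were switched to Activin A, the GSK3 inhibitor CHIR99021 and FGF2, which drive stem cells towards anterior primitive streak, and were harvested at 5 h; the same treatment was given to both genotypes. The study's reporting summary writes the Mtf2 null line as Mtf2GT/GT, a notation for a gene-trap allele, and describes the bulk RNA duplicates as technical. The p-values below therefore measure only the spread between duplicate libraries, estimated over all 24 libraries of the endoderm series. Undifferentiated cells, cells at 24 h and 48 h, Jarid2 null cells and a mesoderm series (Activin A, BMP4, CHIR99021 and FGF2) serve below for comparison.

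Polycomb repressive complex 2 (PRC2) places repressive methyl marks on histone H3 and keeps developmental regulator genes silent in stem cells. MTF2 is a Polycomb-like subunit that binds CpG-rich DNA and helps bring PRC2 to its targets, whereas JARID2 belongs to the other form of the complex. Induction towards endoderm runs through Nodal/Activin and Wnt signalling, which switch on streak regulators such as T and Eomes and later endoderm regulators such as Sox17, Foxa2 and Gata6.

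Levels are given in CPM, a gene's count scaled to a common library total by TMM, and each fold change is the log2 ratio of Mtf2 null over WT with its standard error (SE) from edgeR's quasi-likelihood fit. A gene was called when its Benjamini-Hochberg adjusted p was below 0.001 and its absolute log2 fold change above 1. The 4 libraries held between 11900266 and 12523519 counts. CPM values compare the same gene between libraries and are not per length. Where a gene rose, fell or went from some CPM values to others, the step is from WT to Mtf2 null and not over time.

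Mtf2 lies at chr5:108065674-108109004 (GRCm38). It stood at 334 and 332 CPM in the WT libraries and at 36.8 and 36.8 CPM in the Mtf2 null libraries. The difference was -3.18 on the log2 scale (SE 0.12, adjusted p = 1.2e-14), so transcripts counted for the gene were lower but not absent. Jarid2 stood at 583 and 609 CPM in WT and at 697 and 660 CPM in Mtf2 null, a log2 difference of 0.19 that was not called (adjusted p = 0.22). In the libraries labelled Jarid2 null, Jarid2 stood at 548 and 571 CPM, so the gene's total count does not check that label.

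Some genes separated the lines at every time. Hprt, a purine salvage enzyme that is deleted in a widely used E14 subline, stood at 0.154 and 0.251 CPM in WT, at 0.341 and 0.579 CPM in Jarid2 null and at 88.9 and 106 CPM in Mtf2 null. Over undifferentiated cells, 5 h, 24 h and 48 h, 40 genes were at 5 CPM or more in all 8 WT libraries and at 1 CPM or less in all 8 Mtf2 null libraries. Of these, 32 were processed pseudogenes, and 39 were also at 5 CPM or more in every Jarid2 null library. The opposite pattern was seen for 6 genes. Loss of Mtf2 and other differences between the lines cannot be told apart in this comparison. WT libraries also held more reads in features that collect ribosomal RNA. Of these, mt-Rnr1, mt-Rnr2, Lars2, Gm15564, Mir6236 and AA474408, a set chosen after their values were seen, together took 0.263% and 0.273% of counts in WT against 0.00807% and 0.0156% in Mtf2 null at 5 h, and their part in the results was not tested.

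To show the DNA in front of genes that changed strongly, the bases upstream of the RefSeq start (GRCm38.p6) and outside the annotated gene are given for 4 genes, with each CG dinucleotide, the base pair step MTF2-type subunits recognise, in capitals. The CG step reads the same on both strands. Olig2 lies at chr16:91225300-91225456 (plus strand), Epcam at chr17:87635729-87635978 (plus), Cubn at chr2:13491877-13492126 (minus) and Zfp42 at chr8:43307010-43307259 (minus).
Olig2: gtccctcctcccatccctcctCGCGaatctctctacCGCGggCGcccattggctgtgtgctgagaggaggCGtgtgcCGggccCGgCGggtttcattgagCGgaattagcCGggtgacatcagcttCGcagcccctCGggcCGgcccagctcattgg
Epcam: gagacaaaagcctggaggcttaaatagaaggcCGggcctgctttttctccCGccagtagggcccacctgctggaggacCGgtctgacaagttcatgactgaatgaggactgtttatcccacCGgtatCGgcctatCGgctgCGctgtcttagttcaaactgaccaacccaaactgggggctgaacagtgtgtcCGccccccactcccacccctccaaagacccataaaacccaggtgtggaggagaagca
Cubn: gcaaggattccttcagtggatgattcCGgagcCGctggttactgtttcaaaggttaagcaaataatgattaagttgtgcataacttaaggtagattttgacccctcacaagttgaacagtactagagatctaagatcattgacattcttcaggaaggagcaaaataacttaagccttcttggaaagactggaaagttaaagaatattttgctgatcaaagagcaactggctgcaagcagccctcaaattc
Zfp42: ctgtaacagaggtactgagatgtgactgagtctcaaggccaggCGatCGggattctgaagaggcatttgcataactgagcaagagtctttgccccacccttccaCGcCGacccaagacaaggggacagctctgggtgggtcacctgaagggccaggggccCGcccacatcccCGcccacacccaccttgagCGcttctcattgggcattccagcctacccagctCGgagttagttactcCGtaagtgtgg
The Olig2 stretch of 157 bases held 14 CG steps, and the stretches of 250 bases held 8 for Epcam, 2 for Cubn and 9 for Zfp42. Among all 32851 RefSeq windows of 250 bases, 92.1% held at least 1 CG step and the median was 6. The windows matched only 77.7% of the tested protein-coding genes, under the 80% needed, so a comparison of CG content between called and other genes is void.

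Of 19261 genes tested, 1465 were called between Mtf2 null and WT at 5 h, a background of 7.61%. They divided into 688 genes higher in Mtf2 null (3.57%) and 777 lower (4.03%). The count of called members in each gene list below is to be read beside these shares, and no list was tested as a set. With plain library sizes in place of TMM the median of all genes moved from -0.02 to -0.21 and the split became 509 higher and 1081 lower. Protein-coding genes made up 593 of the higher and 549 of the lower calls, and processed pseudogenes 13 and 138.

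**Figure D1:**
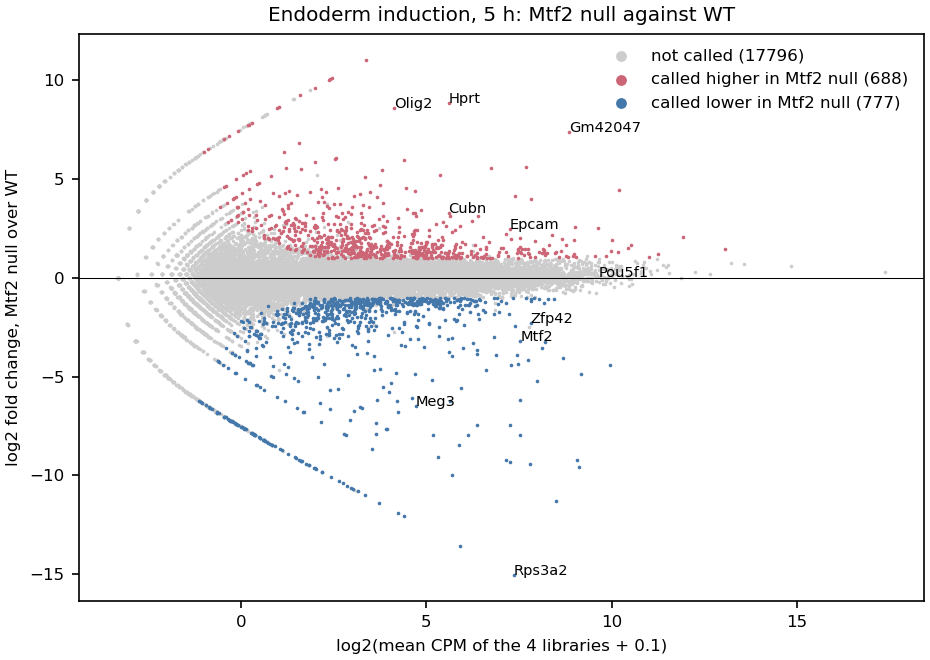
Log2 fold change of Mtf2 null over WT at 5 h (vertical) against log2 of the mean CPM of the 4 libraries plus 0.1 (horizontal), 1 point per gene, with 688 genes called higher in red and 777 called lower in blue. The curved lower edge holds genes with no count in the Mtf2 null libraries, among them the pseudogene Rps3a2.

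The genes with the largest falls were mostly pseudogenes. Rps3a2, a processed pseudogene of a ribosomal protein gene, stood at 323 and 334 CPM in WT with no count in either Mtf2 null library, at least 2350-fold lower against a floor of 3 counts over the group. Gm12191 was at least 857-fold lower and Gm10093 at least 297-fold lower by the same floor. Counts of such copies are uncertain because reads can be shared with the parent gene. Eno1b stood at 1060 and 1090 CPM in WT against 0.283 and 3.32 CPM in Mtf2 null, while its near-identical relative Eno1, a glycolytic enzyme, stood at 407 and 452 CPM against 1770 and 1520 CPM. Of 81 tested genes for cytosolic ribosomal proteins, 13 were called higher and 1 lower, with a median log2 difference of 0.66. Their summed level was 33800 and 36300 CPM in WT and 57300 and 55200 CPM in Mtf2 null. The number called higher was 8 with plain library sizes and 10 to 18 with a single library left out. Genes of this list that have processed copies carry the same uncertainty, and the part of the list-wide difference in other results was not tested.

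Among the 12 genes with the largest rises were Hprt, Apoa2, Gc, Gm8909 and Gm49450. Apoa2, an apolipoprotein gene, and Gc, which encodes a vitamin D carrier, had no count in WT and were at least 48.8-fold and 86.3-fold higher in Mtf2 null. Olig2, a transcription factor of motor neuron and oligodendrocyte progenitors, stood at 0.0772 and 0.0838 CPM in WT and at 36.9 and 32.9 CPM in Mtf2 null. The WT libraries held so few counts that the ratio of 434 carries a 95% counting interval of 120 to 3590, which covers counting error only. Olig1, its neighbour and a member of the neural ectoderm list, rose from 0.54 and 0.586 CPM to 19.6 and 19.7 CPM (log2 difference 5.11, SE 0.32, adjusted p = 8.6e-11). Nnat, an imprinted gene, went from 0.0772 and 0.251 CPM to 10.7 and 11.8 CPM. Plagl1, an imprinted zinc finger factor, went from 0.309 and 0 CPM to 10.4 and 12.4 CPM. The long noncoding RNA Gm42047 stood at 4.71 and 6.2 CPM in WT and at 953 and 879 CPM in Mtf2 null.

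Genes of extraembryonic endoderm, the lineage that forms yolk sac epithelium and its basement membrane, were higher in the Mtf2 null cells. Of 16 tested members, 9 were called higher and 0 lower, with a median log2 difference of 1.56 against -0.02 over all genes tested. Cubn, an endocytic receptor of visceral endoderm, stood at 9.34 and 8.88 CPM in WT and at 87.3 and 88.1 CPM in Mtf2 null (log2 difference 3.27, SE 0.17, adjusted p = 5.3e-12). Dab2, an endocytic adaptor, stood at 3.71 and 3.52 CPM in WT and at 16.7 and 18.3 CPM in Mtf2 null. The basement membrane collagen genes Col4a1 and Col4a2 were higher in Mtf2 null by 2.03 and 2.07 on the log2 scale. Sox7, a transcription factor of this lineage, stood at 4.94 and 4.86 CPM in WT and at 8.22 and 7.1 CPM in Mtf2 null and was not called (adjusted p = 0.019). The summed level of the list was 1180 and 1210 CPM in WT and 2690 and 2490 CPM in Mtf2 null. In undifferentiated cells 13 members were called higher and 1 lower, with a median of 2.18. The sum there was 1200 and 967 CPM in WT and 4300 and 5250 CPM in Mtf2 null. Cubn stood at 164 and 206 CPM in undifferentiated Mtf2 null cells, so its level and the sum were lower at 5 h in that genotype. In bulk RNA, more cells of this type and more RNA per cell cannot be told apart.

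Definitive endoderm regulators were at low levels in both genotypes. Of 14 tested members, 3 were called higher in Mtf2 null and 0 lower, with a median of 0.23, and Gsc and Cer1 did not pass the filter on low counts. Sox17 stood at 0.309 and 0.754 CPM in WT and at 3.21 and 4.42 CPM in Mtf2 null (log2 difference 2.85, SE 0.52, adjusted p = 0.00022). Gata6 stood at 3.55 and 3.43 CPM in WT and at 9.16 and 8.11 CPM in Mtf2 null (log2 difference 1.30, SE 0.21). Foxa2 stood at 0.849 and 0.335 CPM against 2.55 and 2.12 CPM and was not called (adjusted p = 0.012), but was with no filter on low counts (1.93). The Sox17 call was lost without Mtf2 null replicate 2 (2.60), WT replicate 1 (2.33) or WT replicate 2 (3.61). The Gata6 call was lost without Mtf2 null replicate 1 (1.21), WT replicate 1 (1.33) or WT replicate 2 (1.30).

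**Figure D2:**
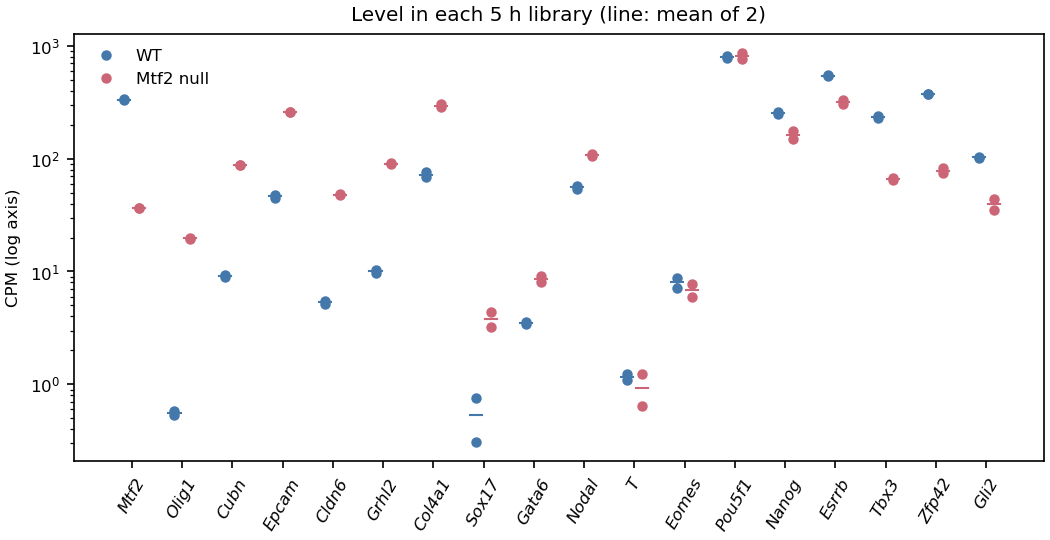
CPM on a log axis for 18 genes in each 5 h library, WT in blue and Mtf2 null in red, with a line at the mean of the 2 libraries. Mtf2 and Zfp42 sit lower and Cubn, Epcam and Olig1 higher in both Mtf2 null libraries, whereas T, Eomes and Pou5f1 overlap.

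Most primitive streak regulators were at low levels in both genotypes. Of 15 tested members 1 was called higher and 0 lower, against 3.57% and 4.03% of all genes tested. The median was -0.23, and with plain library sizes 1 was called lower. The called gene, Cdx1, went from 3.47 and 3.94 CPM to 13.3 and 11.2 CPM. Its call was lost without Mtf2 null replicate 1 (1.60), WT replicate 1 (1.64) or WT replicate 2 (1.84). T, the mesoderm and streak regulator, stood at 1.24 and 1.09 CPM in WT and at 1.23 and 0.645 CPM in Mtf2 null. Eomes, a regulator of endoderm commitment, stood at 8.8 and 7.2 CPM against 5.95 and 7.74 CPM, and the genotypes overlapped for both genes. Mixl1 was below 1 CPM in all 4 libraries. Wnt3a, a Wnt ligand of the streak named after its values were seen, was not called (adjusted p = 0.0013). It stood at 1.08 and 1.17 CPM in WT and at 0.0944 and 0.0922 CPM in Mtf2 null, without overlap. Of 11 tested Wnt ligand genes 1 was called higher and 0 lower, with a median of 0.14. That gene, Wnt8a, rose from 0.309 and 0.335 CPM to 5 and 4.15 CPM (log2 difference 3.79, SE 0.46, adjusted p = 2e-06). Sp8 and Evx1 stood apart in opposite directions, by 1.47 and -1.40 on the log2 scale, and were not called (adjusted p = 0.015 and 0.13).

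Some signalling genes were called, where 3.57% of all genes tested were called higher and 4.03% lower. In the Nodal and Activin pathway, 1 of 18 tested genes was called higher, the Nodal co-receptor Tdgf1, which rose from 206 and 213 CPM to 480 and 514 CPM. A pseudogene copy, Tdgf1-ps1, stood at 26.7 and 22.3 CPM in WT and at 0 and 0.277 CPM in Mtf2 null, so the Tdgf1 count is uncertain. Nodal, the ligand, stood at 54 and 57.7 CPM against 110 and 106 CPM, a log2 difference of 0.95 (SE 0.11, adjusted p = 1.2e-06) that fell short of the fold limit and was called without WT replicate 2 (1.02). The Nodal antagonist gene Lefty2 stood at 89.4 and 97 CPM in WT and 53.6 and 49.1 CPM in Mtf2 null and was not called (adjusted p = 0.0025), but was with plain library sizes (-1.04). Among 15 Wnt feedback and target genes 3 were called higher, including the secreted inhibitor Dkk1, which went from 0.849 and 0.754 CPM to 8.5 and 10.1 CPM. Axin2, a Wnt feedback gene, stood at 49.6 and 50.4 CPM against 37.7 and 29.1 CPM and was not called (adjusted p = 0.012). Among 22 FGF and ERK feedback genes, Fgfr2 and Dusp5 were called higher and Etv5 lower.

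In the hedgehog pathway, 2 of 9 tested genes were called higher and 2 lower, and 1 in each direction with any single 5 h library left out. Ptch1, the receptor and a target of the pathway, rose from 95.1 and 91.6 CPM to 292 and 258 CPM. Gli2, a transcription factor of the pathway, fell from 102 and 103 CPM to 43.9 and 34.9 CPM (log2 difference -1.38, SE 0.15, adjusted p = 5.5e-07). Among 17 immediate early genes, which answer growth factor signals within minutes, 5 were called higher and 0 lower, with a median of 0.91. Egr1 went from 1.39 and 1.51 CPM to 13.3 and 11.4 CPM, and Dusp1 from 13.8 and 14.2 CPM to 51.5 and 48.2 CPM. With single libraries left out, between 2 and 4 of these genes were called.

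Part of the epithelial genes were higher. Of 15 trophoblast and simple epithelial genes, 5 were called higher and 0 lower, and between 3 and 5 higher with a single library left out. Epcam, an epithelial adhesion molecule, rose from 47.3 and 45.1 CPM to 261 and 257 CPM (log2 difference 2.49, SE 0.10, adjusted p = 9.7e-14). Of 13 epithelial-mesenchymal transition genes, 4 were called higher and 2 lower, Epcam among the higher. The tight junction gene Cldn6 rose from 5.17 and 5.53 CPM to 47.3 and 48.1 CPM, and Cldn7 from 1.54 and 1.42 CPM to 12 and 11.3 CPM. The mesenchymal factor Twist1 was the other gene called higher, from 1.24 and 1.17 CPM to 5.19 and 3.87 CPM, and its call was lost without Mtf2 null replicate 1 (1.68), WT replicate 1 (1.94) or WT replicate 2 (1.89). The genes called lower were Zeb1, a repressor of epithelial genes, at 34.1 and 30.8 CPM against 13.9 and 12 CPM, and Vim, a mesenchymal intermediate filament gene, at 127 and 137 CPM against 38.9 and 34.4 CPM. Grhl2, an epithelial transcription factor listed with formative genes, rose from 10.4 and 9.72 CPM to 90.7 and 88.7 CPM.

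**Figure D3:**
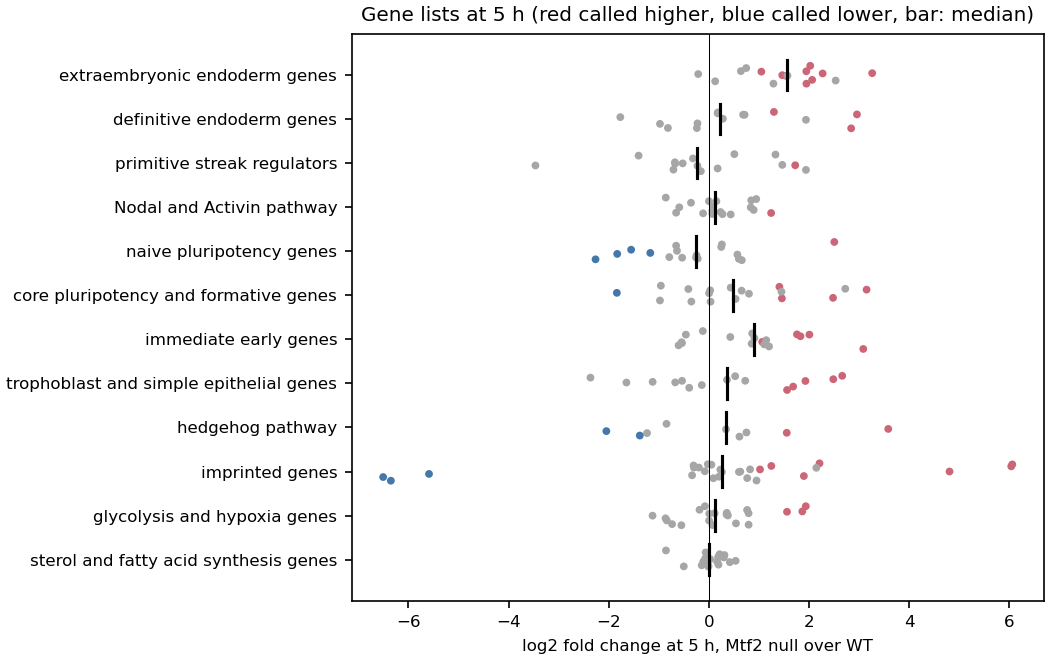
Log2 fold change at 5 h of each tested member of 12 gene lists, with called members in red (higher) or blue (lower), others in grey and the list median as a bar. Extraembryonic endoderm genes have a median of 1.56, and sterol and fatty acid synthesis genes one of 0.01 with no called member.

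Naive pluripotency genes, which mark the ground state of stem cells, were in part lower. Of 17 tested, 4 were called lower and 1 higher, with a median of -0.26, and 3 were called lower with any single 5 h library left out. Zfp42 (Rex1) fell from 373 and 376 CPM to 81.8 and 74.3 CPM (log2 difference -2.26, SE 0.11, adjusted p = 2.1e-12). Tbx3 fell from 230 and 238 CPM to 66.9 and 64.7 CPM, and Tcl1 from 62.1 and 67.7 CPM to 25 and 19.3 CPM. Dppa3 went the other way, from 0.772 and 0.754 CPM to 4.91 and 3.87 CPM. Nanog stood at 250 and 256 CPM against 148 and 174 CPM and Esrrb at 546 and 541 CPM against 327 and 302 CPM, both short of the fold limit. Pou5f1, the core pluripotency factor, stood at 771 and 808 CPM in WT and at 858 and 761 CPM in Mtf2 null, so the genotypes overlapped. Of 18 core and formative genes, 4 were called higher and 1 lower, with a median of 0.49. The gene called lower was Zic5, at 13.2 and 12.1 CPM in WT and 3.59 and 3.5 CPM in Mtf2 null. Otx2, of the same list, stood at 3.71 and 4.77 CPM against 1.7 and 2.58 CPM and was not called (adjusted p = 0.018). Pou3f1, a formative factor, rose from 2.86 and 2.85 CPM to 15 and 17 CPM, and the DNA methylation cofactor Dnmt3l from 145 and 158 CPM to 439 and 397 CPM.

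Regulators of other lineages were called in both directions, against 3.57% of all genes tested called higher and 4.03% lower. Of 14 tested neural ectoderm regulators 3 were called higher and 2 lower, with a median of -0.01, the lower ones being Sox1 and Sox21, and 1 was called lower with any single 5 h library left out. Sox11 rose from 16.8 and 16.3 CPM to 95.9 and 112 CPM, and Sox21 fell from 9.88 and 10.1 CPM to 2.74 and 3.87 CPM. Of 14 cardiac and lateral mesoderm regulators, 3 were called higher, among them the heart factor Tbx20 and the growth factor receptor Pdgfra, and 1 lower. Of 17 germline genes 3 were called higher, including Tex15, which went from 13.7 and 12.1 CPM to 62.7 and 96.8 CPM, and 1 lower, a call that was lost with any single 5 h library left out. Of 13 p53 targets 3 were called higher and 0 lower. Pmaip1, a pro-apoptotic gene, rose from 18.2 and 16.3 CPM to 140 and 162 CPM. Among 10 markers of stem cell identity 2 were called higher, Tdgf1, whose count is uncertain, and Dppa5a, and 1 lower, Zfp42. Dppa5a rose from 568 and 598 CPM to 1290 and 1250 CPM, and its call was lost with plain library sizes (0.94). The summed level of the 10 markers was 3380 and 3500 CPM in WT and 4210 and 4030 CPM in Mtf2 null.

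The PRC2 subunit genes other than Mtf2 were not called (13 tested, Mtf2 included). Of 20 PRC1 subunit genes 1 was called, against 7.61% of all genes tested. This was Yaf2, at 2.78 and 2.51 CPM in WT and 6.42 and 5.07 CPM in Mtf2 null. The Yaf2 call was lost with plain library sizes (0.93), DESeq2 (1.14), the compared groups alone (1.11), and without Mtf2 null replicate 1 (0.94), WT replicate 1 (1.19) or WT replicate 2 (1.06). Among 10 tested Hox genes the edgeR test called 0 (with 2 at an unadjusted p under 0.05 and 0 called by DESeq2). The noncoding RNAs Meg3, Rian and Mirg of an imprinted cluster were the 3 imprinted genes called lower, and 7 of the 27 tested were called higher. Meg3 stood at 49.4 and 54 CPM in WT and at 0.661 and 0.461 CPM in Mtf2 null. The summed level of mitochondrially encoded genes was 15500 and 16000 CPM in WT and 19900 and 30500 CPM in Mtf2 null. Among 7 tested fibroblast markers, which would mark feeder cells, 0 were called (edgeR, with 2 at an unadjusted p under 0.05 and 0 called by DESeq2), and their summed level was 11.5 and 12.5 CPM in WT and 9.62 and 9.86 CPM in Mtf2 null.

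The difference between Mtf2 null and WT at 5 h was then compared with that in undifferentiated cells, where 2118 of the same genes were called (11.0%). Of the 688 genes higher at 5 h, 481 were also higher in undifferentiated cells, which is 69.9% of the 5 h list and 40.1% of the other. Of the 777 lower genes, 464 were shared, 59.7% of the 5 h list and 50.5% of the other. The difference between both effects was tested directly as an interaction and was called for 513 genes (2.66%), 156 in the higher direction (0.810%) and 357 in the lower (1.85%). This count fell to 257 without Mtf2 null 5 h replicate 2, 251 and 328 without WT 5 h replicate 1 or 2, 317 without undifferentiated Mtf2 null replicate 1 and 281 without undifferentiated WT replicate 2.

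For glycolysis and hypoxia genes, 7 interactions were called higher and 1 lower among 21 tested gene records. The summed level of the list was 12900 and 11300 CPM in undifferentiated WT and 6590 and 6810 CPM in WT at 5 h. In Mtf2 null it was 9430 and 10200 CPM before induction and 10400 and 9230 CPM at 5 h, so the WT level was lower at 5 h while the Mtf2 null ranges overlapped. Bnip3, a hypoxia-induced mitophagy gene, stood at 122 and 137 CPM in undifferentiated WT and 25.7 and 21.6 CPM in undifferentiated Mtf2 null. At 5 h it stood at 4.71 and 4.77 CPM in WT and 12.3 and 15.8 CPM in Mtf2 null, an interaction of 4.02 on the log2 scale (SE 0.25, adjusted p = 4.2e-09). From undifferentiated cells to 5 h, Bnip3 thus differed by -4.77 in WT and by -0.75 in Mtf2 null. Egln3, an oxygen sensor, showed an interaction of 3.98. In undifferentiated Jarid2 null cells Bnip3 stood at 26.2 and 32.4 CPM and Egln3 at 8.01 and 7.38 CPM, against 31.4 and 26.4 CPM for Egln3 in undifferentiated WT. The undifferentiated WT libraries thus stood above those of both mutants for these genes. At 5 h Bnip3 stood at 5.59 and 5.13 CPM in Jarid2 null. Ldha, which makes lactate and was named after its values were seen, stood at 1130 and 1080 CPM against 319 and 338 CPM before induction and at 404 and 419 CPM against 619 and 581 CPM at 5 h. Between 7 and 9 of these genes had an interaction called higher when any single library was left out.

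Of 18 sterol and fatty acid synthesis genes, 11 were called lower in undifferentiated Mtf2 null cells and 0 were called at 5 h (edgeR, with 4 at an unadjusted p under 0.05 and 0 called by DESeq2). The interaction was called higher for 8 of them and lower for 0. Idi1, an isoprenoid synthesis enzyme named after its values were seen, stood at 107 and 108 CPM in undifferentiated WT against 23.1 and 26.5 CPM in Mtf2 null. At 5 h it stood at 61.1 and 63.6 CPM against 68.7 and 84.8 CPM. Between 5 and 7 interactions of the list were called with a single library left out.

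For naive pluripotency genes, 0 interactions were called higher and 7 lower. Their summed level was 3170 and 2540 CPM before induction and 3120 and 3160 CPM at 5 h in WT, and 4800 and 4580 CPM before induction and 2590 and 2520 CPM at 5 h in Mtf2 null. Klf4 stood at 180 and 120 CPM in undifferentiated WT against 355 and 356 CPM in Mtf2 null, and at 132 and 134 CPM against 113 and 111 CPM at 5 h (interaction -1.49, SE 0.23, adjusted p = 0.00014). Esrrb and Tbx3 had interactions of -1.54 and -1.40. The number called lower was 4 without Mtf2 null 5 h replicate 1, 1 without replicate 2, 3 without either WT 5 h library, 4 without undifferentiated Mtf2 null replicate 2 and 3 without undifferentiated WT replicate 2. Gata6 also had a smaller effect at 5 h than before induction (interaction -1.83), where it stood at 1.89 and 2.16 CPM in WT and at 17.1 and 18.4 CPM in Mtf2 null.

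**Figure D4:**
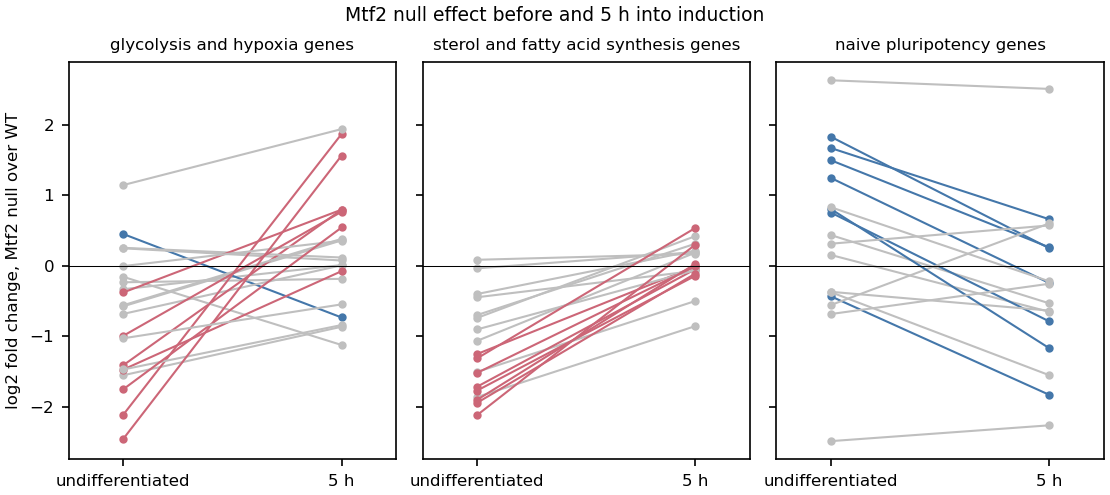
Log2 fold change of Mtf2 null over WT in undifferentiated cells and at 5 h, 1 line per gene, for glycolysis and hypoxia, sterol and fatty acid synthesis, and naive pluripotency genes. Lines with a called interaction are red (higher at 5 h; 7, 8 and 0 genes) or blue (lower at 5 h; 1, 0 and 7 genes).

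From 5 h to 24 h the difference between genotypes changed for 12 genes. At 24 h 1267 genes were called (6.58%), and 436 of the 688 higher and 442 of the 777 lower genes were shared with 5 h. These interactions (0.0623% of genes) were 6 in each direction, with 2542 genes at an unadjusted p under 0.05 by edgeR and 45 called by DESeq2. Gata6 was among them, with WT at 0.654 and 1.21 CPM and Mtf2 null at 13.3 and 11.8 CPM at 24 h. Cubn rose further relative to WT (interaction 2.02, SE 0.27), whereas Enpp2, named after its values were seen, went from a log2 difference of 2.36 to -1.70.

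In the mesoderm series at 5 h, which used other libraries, 1388 of 18361 genes were called (7.56%). Of the 5 h endoderm genes tested there, 499 of 685 higher genes and 562 of 765 lower genes were called in the same direction, 72.8% and 73.5% of the endoderm lists and 79% and 74.5% of the mesoderm lists. No gene was called in opposite directions. Zfp42 stood at 443 and 428 CPM in mesoderm WT against 107 and 115 CPM in Mtf2 null, and Cubn at 7.95 and 4.81 CPM against 101 and 95.2 CPM.

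Jarid2 null cells at 5 h were compared with the same WT libraries, and 7 genes were called (0.0363%), with 1465 at an unadjusted p under 0.05 by edgeR. Of these 6 were the features that collect ribosomal RNA reads and the other was Ak4, an adenylate kinase. Mtf2 null and Jarid2 null libraries, compared directly, differed in 1543 genes (8.01%). Cubn stood at 10.5 and 10.7 CPM in Jarid2 null, lower than in Mtf2 null (log2 difference of Mtf2 null over Jarid2 null 3.05, SE 0.17, adjusted p = 9.6e-12). Zfp42 stood at 350 and 363 CPM in Jarid2 null, higher than in Mtf2 null, and Epcam at 46.8 and 52 CPM, lower than in Mtf2 null.

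The calls were not spread evenly over chromosomes. Protein-coding genes on chromosome 8 had a median log2 difference of -0.29 and those on chromosome 14 of -0.17, against medians between -0.03 and 0.13 on the other 17 autosomes. On chromosome 8, 8.07% of 768 genes were called lower, and on chromosome 14, 10% of 548. The X chromosome went the other way, with a median of 0.12 and 7.23% of 484 genes called higher against 1.45% lower. The chromosome 8 median was -0.27 in undifferentiated cells, -0.29 at 24 h and -0.33 in mesoderm at 5 h, and 0.05 in Jarid2 null at 5 h. Among the named genes on chromosome 8, Zfp42, Hhip and Rprl3 were called lower and Col4a1, Col4a2, Tex15 and Gm42047 higher. Bmp4 lies on chromosome 14. The part of these shifts in the calls of single genes was not tested. Without chromosomes 8, 14, X and Y, 608 genes were called higher and 620 lower.

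**Figure D5:**
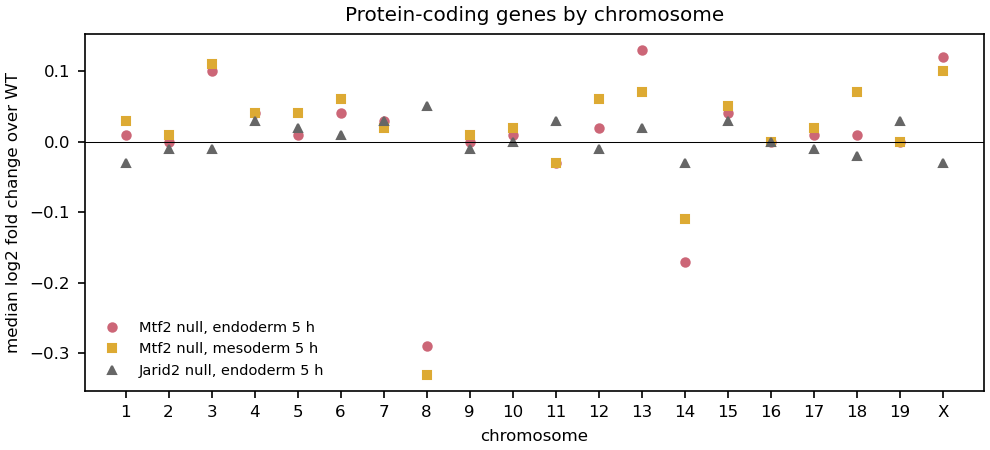
Median log2 fold change over WT of protein-coding genes on each autosome and X, for Mtf2 null in endoderm at 5 h (circles), Mtf2 null in mesoderm at 5 h (squares) and Jarid2 null in endoderm at 5 h (triangles). Chromosomes 8 and 14 sit lowest in both Mtf2 null comparisons, at -0.29 and -0.17 in endoderm.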

How the data were processed

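Bulk RNA libraries were depleted of ribosomal RNA, sequenced and, per the labels, processed with Salmon against GRCm38/mm10. The authors deposited estimated counts per gene, not normalised, which were rounded to whole numbers here. Genes were kept with filterByExpr (minimum count 10, total 15), scaled by TMM and fitted with edgeR 4.0.16 (R 4.3.3) over all 24 endoderm libraries, with a mean for each genotype and time. Other scalings, filters, fold limits, sample sets, a replicate block and DESeq2 1.42.0 were alternatives. Endoderm libraries held 9889592 to 16372804 counts. The mesoderm table was fitted separately. The fit was tested on simulated counts. Symbols and coordinates came from GENCODE (GRCm38). Duplicates differed by more than sampling noise, with a chi-square per degree of freedom of 4.07 for WT and 8.97 for Mtf2 null at 5 h.

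Named genes were Mtf2 and Jarid2, the 12 largest called changes in each direction at 5 CPM or more without overlap, the 5 largest called interactions in each direction, up to 4 called members of each gene list, and a fixed set of lineage genes. Groups, lists and rules were chosen with earlier results of these data known. Floors and intervals cover counting error only. The values of 1 gene named by the rule are not reported here.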

Additional observations from a re-analysis of the deposited data

Results flagged for a closer look

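The difference between Mtf2 null and WT changed between undifferentiated cells and 5 h for 513 genes, and between 5 h and 24 h for 12 genes, by the interaction test of edgeR. Among the named genes, the log2 interaction from undifferentiated to 5 h was positive for Bnip3 (4.02), Egln3 (3.98), Slc16a3 (3.52), mt-Co2 (3.27), Ascl2 (2.67), Ier3 (2.54), Pou3f1 (2.31) and Tdgf1 (1.28). Each of these except Pou3f1 also stood lower in the undifferentiated Jarid2 null libraries than in the undifferentiated WT libraries. The interaction was negative for Wnt7b (-4.07), Hhip (-3.93), Itpr2 (-3.10), Adgrd1 (-2.92), Prss35 (-2.85) and Tmcc3 (-2.74). Smaller negative values were found for Prdm14 (-1.97), Gata6 (-1.83), Esrrb (-1.54), Klf4 (-1.49), Tbx3 (-1.40), Gata4 (-1.33), Gli2 (-1.29), Perp (-1.04) and Jarid2 (-1.02). Groups of 2 libraries were too small for a test of single outlying libraries.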

How the results depend on the processing

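The 5 h count was 2378 with no fold limit and 650 above an absolute log2 fold change of 2, and 1069 to 1126 with a single library left out. The interaction count from undifferentiated to 5 h was 868 with no filter on low counts, 293 with only the compared groups fitted, 70 above 2, and 251 to 699 with a single library left out. The interaction from 5 h to 24 h was called for 19 genes with plain library sizes, 176 with no filter, 23 with the stricter filter and 45 with DESeq2. Mtf2 null against Jarid2 null gave 2483 calls with no fold limit and 678 above 2. With a library left out, the lone sample is assumed to vary like the other groups. The replicate block changed the 3 counts to 1473, 547 and 1547, and 1444 genes were called with and without it at 5 h. Replicate differences of WT and Mtf2 null at 5 h correlated at -0.05. Over all 66 pairs of groups the correlations ran from -0.33 to 0.38, with 22 above 0.1. The 5 h pair alone cannot show whether the replicate numbers mark a shared batch. Uncalled genes changed sign with plain library sizes (Irx3 -0.11, mt-Co2 -0.08, Pou5f1 -0.15). With a single library left out their ranges were -0.62 to 0.54 for Irx3, -0.12 to 0.39 for mt-Co2, -0.05 to 0.12 for Pou5f1, -0.84 to 0.08 for T and -0.10 to 2.13 for Bmp2. Of 129 named genes, 23 lost their call under at least 1 alternative, and 4 gained one (Lefty2 -1.04 with plain library sizes, Fgf5 2.71 and Foxa2 1.93 with no filter, Nodal 1.02 without WT 5 h replicate 2). Chosen after seeing the data, protein-coding genes alone gave 1142 calls at 5 h and 491 interactions, and leaving out genes present in a single genotype gave 1419. The causes of these shifts were not tested. Genes with few counts limit what can be called.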
